A study of Mus musculus with 14 samples.

Results

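The chromatin at 9 lens crystallin genes was examined in embryonic mouse retina at E14 (embryonic day 14). The genes were Cryaa, Cryab, Cryba1, Cryba2, Cryba4, Crybb1, Crybb2, Crybb3 and Crygs, taken by name out of 22367 annotated protein-coding genes. The regions examined were the H3K27ac peaks that overlapped each gene body or 20 kb on either side of it, and these came to 6 of 13463 peaks. Coordinates are those of mm9 with GENCODE vM1 annotation. The chromatin came from CD1 mice. Notes common to the whole series name a conditional Lhx2 knockout, which nothing assigns to this sample. The labels call the cells retinal progenitors, whereas the study's methods describe whole dissected retinas for ChIP-Seq, so other cell types of the eye could be present. In such bulk chromatin, fewer acetylated cells and less acetylation per cell cannot be told apart. The 2 replicate libraries were pooled before peaks were called against 1 isotype control, so no peak has a replicate error and no test between genes was made.

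H3K27ac is acetylation of lysine 27 of histone H3, a mark found at active promoters and enhancers. Crystallins are the abundant soluble proteins of the vertebrate lens. The α-crystallins are small heat shock proteins and chaperones, while the β- and γ-crystallins share a different fold and fill the lens fibre cells, where they give the lens its refractive power. Some crystallins, Cryab above all, are also made outside the lens, and several have been described in retina. Large MAF proteins, PAX6, SOX and PROX1 are well known regulators of crystallin promoters in lens.

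The peak list was read from 113543038 ChIP tags and 9210563 control tags after the removal of duplicates. Peaks had a median length of 1015 bp, a median pileup of 15.06 and a median fold enrichment of 4.459 over the control. Pileup is the mean read depth over the peak after scaling to the shallower library, and fold enrichment is the ratio to local background. The control was 12.3 times shallower than the ChIP, so a region without a peak is one that did not pass the caller's threshold and may still carry some acetylation. The tissue label was checked against markers. All 10 retinal progenitor genes examined, among them Rax, Lhx2, Six6 and Hes5, had a peak within 1000 bp of a transcript start, and so did 5 of 6 retinal ganglion cell genes, against 49.8% of all protein-coding genes. These markers mostly have CpG-rich starts (of the 10, 4 are in the intermediate and 6 in the high class of CpG content described with the promoters), where a peak is common in any case, so the counts are a weak check of the tissue. The peak at the Six6 start had its midpoint nearest to another gene's start, 274 bp from that of 4930447C04Rik.

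None of the crystallin genes had a peak at its start. A peak within 1000 bp of any annotated transcript start was found for 0 of 9 crystallin genes, against 49.8% of all protein-coding genes. No peak lay inside the body of any of the 9 genes either, against 50.6% of all genes. Within 20 kb of the gene body a peak was found for 4 of 9 genes (Cryaa, Cryab, Cryba4 and Crybb1), against 63.5% of all protein-coding genes. Cryba1, Cryba2, Crybb2, Crybb3 and Crygs had none in that window.

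**Figure D1:**
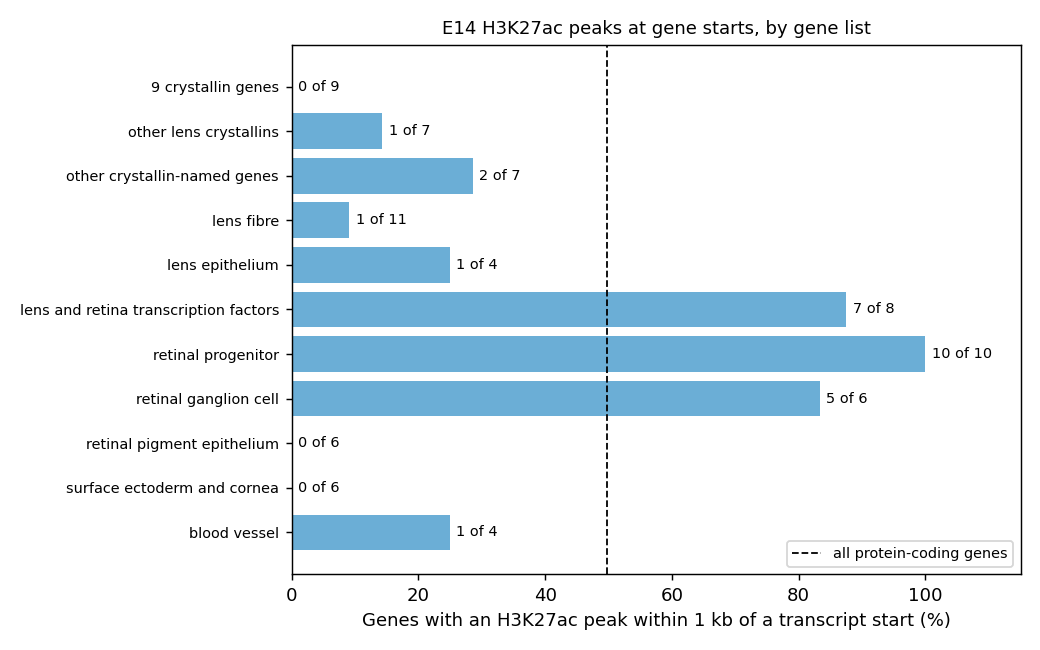
Share of genes (x axis, %) with an H3K27ac peak within 1 kb of a transcript start, for each gene list (y axis); bars are labelled with counts and the dashed line is the share of all protein-coding genes (49.8%). The 9 crystallin genes stand at 0, the lens fibre markers at 1 of 11 and the retinal progenitor markers at 10 of 10.

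The sequences at the crystallin starts are shown first, since the CpG content and the short motifs described for them are read from these letters. RefSeq promoters (250 bases before to 50 bases after the start, GRCm38.p6) were held for 8 of 9 genes, and each matched its own mm9 chromosome exactly once. Cryab had no entry. The 6 printed crystallin promoters cover an α-crystallin, acidic and basic β-crystallins and γS-crystallin, and Crybb2 is included as the one without a MAF half-site. U2af1 is shown as the contrast, since it is the gene whose start carries the peak nearest to Cryaa. Capitals mark 4 short motifs or their reverse complements. These are the MAF half-site TGCTGA, part of the element bound by large MAF proteins. Another is the TATA box, searched as TATAAA. The CCAAT box was searched by its own letters, and the GC box as GGGCGG. Each run reads 5′ to 3′ in the direction of transcription.

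Cryaa: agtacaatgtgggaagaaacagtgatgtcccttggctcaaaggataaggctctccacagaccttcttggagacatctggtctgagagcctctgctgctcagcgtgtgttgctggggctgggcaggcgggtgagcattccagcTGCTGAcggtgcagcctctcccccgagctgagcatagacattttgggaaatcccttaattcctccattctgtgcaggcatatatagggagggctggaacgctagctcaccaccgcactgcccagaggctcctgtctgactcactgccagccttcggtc
Cryba1: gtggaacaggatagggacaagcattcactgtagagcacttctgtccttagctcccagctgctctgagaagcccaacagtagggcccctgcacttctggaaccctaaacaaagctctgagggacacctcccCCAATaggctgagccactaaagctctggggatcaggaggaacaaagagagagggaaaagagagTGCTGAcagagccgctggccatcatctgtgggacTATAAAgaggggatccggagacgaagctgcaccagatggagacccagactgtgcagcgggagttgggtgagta
Cryba4: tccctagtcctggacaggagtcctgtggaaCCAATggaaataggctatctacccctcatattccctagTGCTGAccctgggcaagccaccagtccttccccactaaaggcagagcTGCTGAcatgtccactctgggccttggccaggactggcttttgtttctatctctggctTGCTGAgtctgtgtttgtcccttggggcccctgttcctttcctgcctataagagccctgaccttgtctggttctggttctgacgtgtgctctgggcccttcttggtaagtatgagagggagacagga
Crybb1: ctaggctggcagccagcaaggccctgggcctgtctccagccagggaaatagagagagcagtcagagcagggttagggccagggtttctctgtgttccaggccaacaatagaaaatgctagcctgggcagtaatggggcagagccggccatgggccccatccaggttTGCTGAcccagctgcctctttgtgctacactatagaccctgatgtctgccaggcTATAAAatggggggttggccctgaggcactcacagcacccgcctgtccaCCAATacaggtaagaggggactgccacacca
Crybb2: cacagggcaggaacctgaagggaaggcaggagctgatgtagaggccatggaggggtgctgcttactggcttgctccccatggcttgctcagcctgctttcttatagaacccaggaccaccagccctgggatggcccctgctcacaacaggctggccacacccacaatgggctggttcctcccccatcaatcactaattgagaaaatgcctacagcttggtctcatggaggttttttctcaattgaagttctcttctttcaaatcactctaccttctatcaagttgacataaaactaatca
Crygs: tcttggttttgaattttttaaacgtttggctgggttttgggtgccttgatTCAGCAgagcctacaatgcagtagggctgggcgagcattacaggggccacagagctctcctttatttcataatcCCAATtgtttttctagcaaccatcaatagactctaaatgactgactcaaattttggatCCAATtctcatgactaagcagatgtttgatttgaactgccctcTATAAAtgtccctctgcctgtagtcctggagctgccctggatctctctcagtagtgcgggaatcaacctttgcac
U2af1: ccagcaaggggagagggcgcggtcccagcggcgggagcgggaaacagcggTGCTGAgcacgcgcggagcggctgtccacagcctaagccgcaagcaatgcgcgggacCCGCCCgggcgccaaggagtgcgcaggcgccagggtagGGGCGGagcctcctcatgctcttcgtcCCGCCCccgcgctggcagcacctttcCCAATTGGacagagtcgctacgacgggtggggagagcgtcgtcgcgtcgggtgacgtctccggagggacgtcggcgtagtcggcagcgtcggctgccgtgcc

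The Cryaa promoter lies at chr17:31814626-31814925 on the plus strand and the Crybb1 promoter at chr5:112684590-112684889 on the plus strand. The other crystallin promoters printed are on the minus strand, Cryba1 at chr11:77538746-77539045, Cryba4 at chr5:112681489-112681788, Crybb2 at chr5:113499088-113499387 and Crygs at chr16:22811434-22811733. The U2af1 promoter is at chr17:31795660-31795959 on the minus strand. A peak covered the U2af1 promoter and none covered a crystallin promoter. CpG dinucleotides were fewer than the median promoter has in 6 of the 8 crystallin sequences. The 300 bases held 7 in Cryaa, 4 in Cryba1, 15 in Cryba2, 1 in Cryba4, 2 in Crybb1, 0 in Crybb2, 6 in Crybb3 and 3 in Crygs. Their median of 3.5 and mean of 4.75 compare with 7.0 and 12.5 over 32544 RefSeq promoters, and U2af1 held 40. Cryaa equalled the median of all promoters and Cryba2 exceeded their mean.

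TGCTGA was found on either strand in 7 of 8 crystallin promoters, with Crybb2 the exception, and in 19.5% of all RefSeq promoters. Cryba4 held 3 copies, whose first bases lay at −182, −135 and −77, with the RefSeq start counted as 0. In Cryaa the motif began at −108, in Crybb1 at −84 and in Cryba1 at −57. TATAAA was present in 4 of 8 (Cryba1 at −23, Cryba2 at −3, Crybb1 at −30 and Crygs at −25), against 13.6% of promoters. CCAAT was present in 4 of 8 against 37.4%. GGGCGG was present in 0 of 8 against 35.9%, whereas U2af1 held 3 copies. GAANNTTC, the core of a heat shock element, was present in 0 of 8 against 7.89%. U2af1 held TGCTGA as well, at −200, so these letters are no mark of crystallin genes alone. Among the central 300 bases of all 13463 peaks, 15.2% held TGCTGA, 4.0% TATAAA, 23.1% CCAAT, 55.3% GGGCGG and 4.71% GAANNTTC. The motifs were searched on both strands, and none of those named overlaps another except the 2 CCAAT matches on opposite strands in U2af1. The motifs are letter matches in a short window and show nothing about binding.

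The peak calls at gene starts followed CpG content across the genome. CpG observed/expected was counted over 1000 bp on either side of each gene's 5′ end, where a value near 1 means that CpG is as frequent as the base composition gives. In the low class (below 0.35) 8.29% of genes had a peak at a start, in the intermediate class 62.2%, and in the high class (above 0.6) 89.2%. Of the crystallin genes, 8 of 9 fell in the low class: Crybb2 had 0.142, Crybb1 0.143, Cryba4 0.174, Crybb3 0.243, Crygs 0.259, Cryab 0.26, Cryba1 0.271 and Cryaa 0.341. Cryba2, at 0.5, was the only one in the intermediate class. The median of the 9 genes was 0.259, against 0.468 over all genes and 0.646 over the retinal progenitor markers. The count of 0 peaks among 8 genes in the low class is close to the background of that class, so it is no result about crystallin genes beyond their membership of that class. GC content did not separate them in the same way, since it ran from 44.8% to 56.7% with a median of 53.8%, against 51.1% over all genes.

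**Figure D2:**
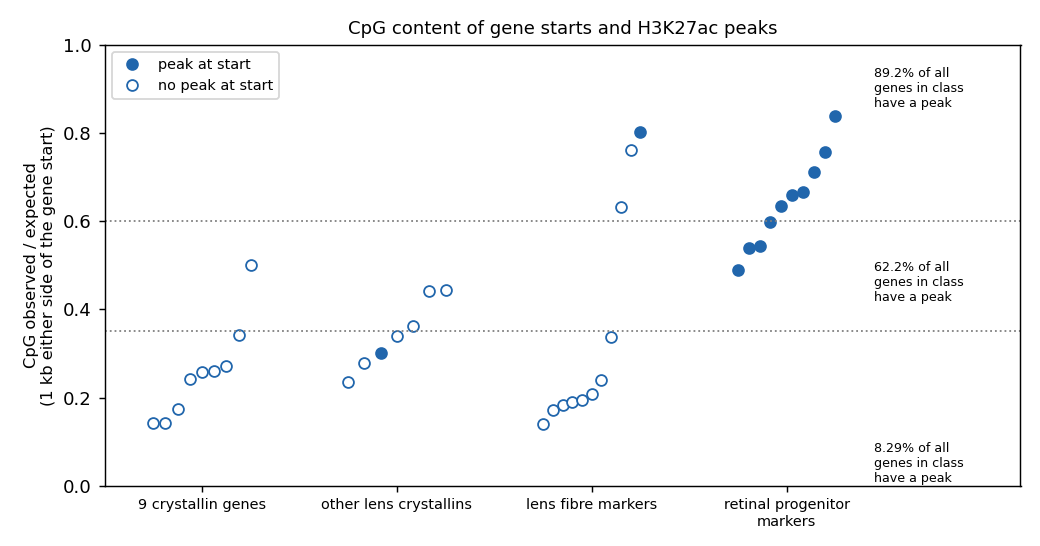
CpG observed/expected around the gene start (y axis, ratio) for single genes of 4 lists (x axis); filled points have an H3K27ac peak at a start, open points do not, and dotted lines bound the low, intermediate and high classes. All 9 crystallin genes are open points, 8 of them in the low class, where 8.29% of all genes have a peak.

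The distance from the nearest annotated transcript start to the nearest peak ran from 11.3 kb for Cryba4 to 75.3 kb for Cryba2, with a median of 33.8 kb. Cryab followed Cryba4 at 14.4 kb, then Crybb1 at 15.9 kb, Cryaa at 18.5 kb, Cryba1 at 33.8 kb, Crygs at 45.7 kb, Crybb3 at 51.3 kb and Crybb2 at 62.8 kb. These distances are long beside the 1.26 kb median of all genes, but short or middling beside the 74.8 kb median of the 11220 genes without a peak at a start. Of those 11220 genes, 87.3% lay at least as far from a peak as Cryba4 and 49.8% at least as far as Cryba2. Of the 9 distances, 3 rest on a weak peak. With peaks of fold enrichment of at least 4 and q of at most 0.001, the nearest peak was 179 kb from Cryba2, 409 kb from Crybb3 and 420 kb from Crybb2, which was then the farthest, while the other 6 distances did not move. With no replicate values, it cannot be said whether neighbours in this order differ.

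**Figure D3:**
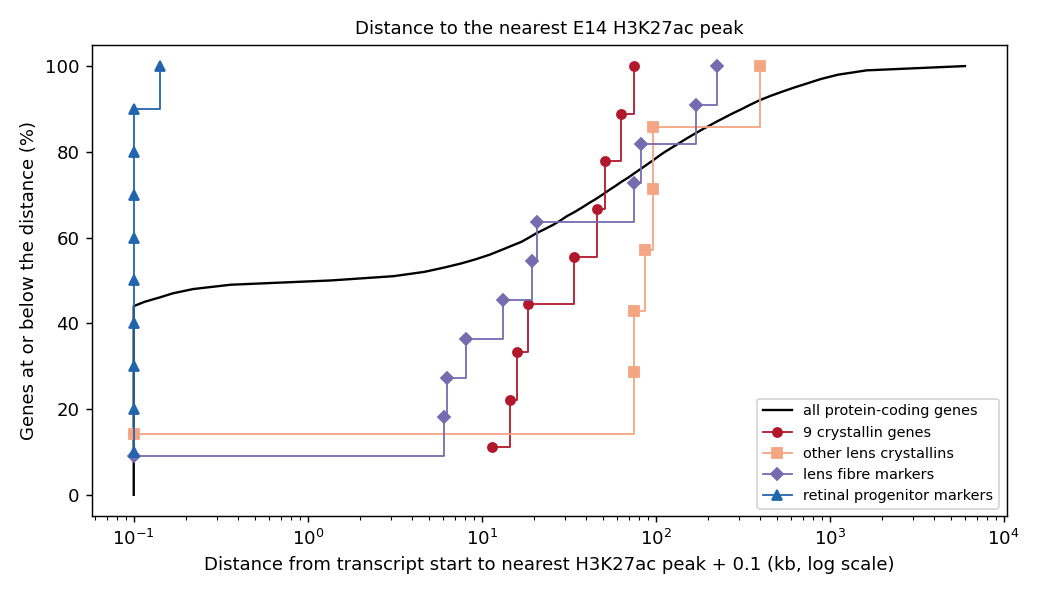
Cumulative share of genes (y axis, %) by distance from a transcript start to the nearest H3K27ac peak (x axis, kb, log scale, 0.1 kb added so that genes touching a peak can be drawn). The 9 crystallin genes lie between 11.3 and 75.3 kb, while the retinal progenitor markers lie at or within 0.042 kb of a peak.

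Among the α-crystallins, Cryaa (ENSMUSG00000024041.7, chr17:31814878-31818667, plus strand) had 1 peak in its window. This peak, chr17:31794643-31796415, lay 18463 bp upstream, was 1773 bp long and had a pileup of 19.08 and a fold enrichment of 6.644. Its midpoint was 170 bp from the start of U2af1, which encodes a splicing factor that recognises the 3′ splice site. Only 7.41% of all peaks had a higher fold enrichment. The peak-free stretch holding Cryaa was 107 kb long.

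Cryab (ENSMUSG00000032060.8, chr9:50560863-50564738, plus strand) encodes αB-crystallin, which is made in many tissues outside the lens. Its start lies 404 bp from that of Hspb2, another small heat shock protein gene transcribed in the opposite direction, and Hspb2 had no peak at its start either. The nearest peak, chr9:50575840-50577032, lay 14.4 kb from a Cryab start, was 1193 bp long and had a pileup of 16.03 and a fold enrichment of 4.376. It covered the neighbouring starts of Fdxacb1 and 1110032A03Rik. The other peak in the window, chr9:50583056-50584086, was 1031 bp long with a pileup of 17.14 and a fold enrichment of 5.214, and its midpoint was 80 bp from the start of Alg9, a mannosyltransferase gene of N-glycan synthesis. Of the 8 genes starting within 100 kb of Cryab, 6 had a peak at a start, against 49.8% of all genes. For Dixdc1 and Ppp2r1b the peak lay at another transcript start than the gene's 5′ end, farther from Cryab.

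Among the acidic β-crystallins, Cryba4 (ENSMUSG00000066975.5, chr5:112675513-112681538, minus strand) is paired head to head with the basic β-crystallin gene Crybb1 (ENSMUSG00000029343.10, chr5:112684835-112698605, plus strand). Their starts are 3297 bp apart, and both lie in a peak-free stretch of 36.2 kb, the shortest of any crystallin gene. On the Cryba4 side this stretch ends at the peak chr5:112665462-112668893, which was 3432 bp long and had a pileup of 11.23 and a fold enrichment of 4.81. It began 6620 bp from the Cryba4 body and 15942 bp from Crybb1. Only 1.71% of all peaks were longer, while 76.1% had a higher pileup, so it was a long and low region.

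This peak was the nearest one to the transcript starts of Cryba4 and Crybb1, although the Tpst2 peak lay nearer to the Crybb1 body. It was the only peak in any crystallin window that overlapped no annotated gene and no gene start. The nearest protein-coding start was that of Cryba4 itself, at 13005 bp from the midpoint. Counting genes of every type, the nearest start was that of Miat at 9209 bp, a long non-coding RNA that has been described in retina. The central 300 bases of the peak, chr5:112667028-112667327 on the plus strand, are shown because it is the only such peak within 20 kb of a crystallin gene body. The capitals mark the one motif match, a CCAAT.

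Distal peak centre: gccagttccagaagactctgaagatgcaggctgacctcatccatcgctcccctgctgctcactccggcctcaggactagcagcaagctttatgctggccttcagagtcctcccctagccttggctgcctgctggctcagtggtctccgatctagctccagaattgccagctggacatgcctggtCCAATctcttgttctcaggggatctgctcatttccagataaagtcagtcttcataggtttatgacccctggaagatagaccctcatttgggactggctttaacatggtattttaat

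The whole 3432-bp region had a CpG observed/expected of 0.17, whereas the 4 peaks at promoters of other genes had 0.76 to 0.833. The Cryba4 start had 0.174 and the Crybb1 start 0.143. Values like these are common, since gene starts of the low class had a median of 0.183. Which gene, if any, this region acts on was not tested. A second long peak, chr5:112653855-112658255, lay 17258 bp from the Cryba4 body, was 4401 bp long and covered the Miat start, with a pileup of 16.18, a fold enrichment of 5.266 and a CpG observed/expected of 0.443. On the Crybb1 side the stretch ends at chr5:112705132-112706345, a peak of 1214 bp with a pileup of 16.31 and a fold enrichment of 6.283. Its midpoint was 11 bp from the start of Tpst2, a protein-tyrosine sulphotransferase gene, and it began 6527 bp past the end of Crybb1. All 4 protein-coding neighbours starting within 100 kb of Cryba4 (Tpst2, Tfip11, Srrd and Hps4) had a peak at a start, against 49.8% of all genes. Srrd and Hps4 shared a single peak. All 4 are in the high class of CpG content, where 89.2% of genes have a peak, so the count is near the background of that class.

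Cryba1 (ENSMUSG00000000724.9, chr11:77532117-77538785, minus strand) encodes βA3/A1-crystallin. It lies within Nufip2 on the opposite strand, and Nufip2, which encodes an RNA-binding protein, had a strong peak at its start. That peak, chr11:77499240-77501531, was 2292 bp long with a pileup of 24.33 and a fold enrichment of 7.632. It ended 33.8 kb from the nearest annotated Cryba1 transcript start, an internal one, and 37254 bp from the gene's 5′ end. On the other side Myo18a, a myosin gene, had a peak of 1083 bp with a pileup of 20.99 and a fold enrichment of 7.236. The stretch of 75.2 kb between peaks held Cryba1 whole.

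Cryba2 (ENSMUSG00000006546.2, chr1:74936508-74939717, minus strand) was the farthest from any peak, and no neighbouring gene had one at its start. The nearest peak, chr1:74863585-74863999, was 415 bp long with a pileup of 17.19 and a fold enrichment of 3.567, and lay 25702 bp from the nearest protein-coding start, that of Wnt10a. None of the 6 genes starting within 100 kb (Wnt10a, Cdk5r2, Fev, Ccdc108, Ihh and Nhej1) had a peak at a start. The starts of Cdk5r2, Fev and Ihh are rich in CpG, with observed/expected ratios of 0.731, 0.619 and 0.757, so the lack of peaks around Cryba2 included genes of the class in which most have one. Ihh encodes a hedgehog ligand and Cdk5r2 a neuronal activator of the kinase CDK5. The peak-free stretch around Cryba2 was 257 kb long.

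The other basic β-crystallins, Crybb2 (ENSMUSG00000042240.8, chr5:113487278-113499137) and Crybb3 (ENSMUSG00000029352.8, chr5:113504859-113510604), lie on the minus strand with 5722 bp between them. They share the longest peak-free stretch of the 9 genes, at 556 kb, and the same nearest peak. This peak, chr5:113561900-113562832, lay 51.3 kb from Crybb3 and 62.8 kb from Crybb2, was 933 bp long and had a pileup of 14.21 and a fold enrichment of 3.463. It fell inside 2900026A02Rik, 30005 bp from that gene's start. Neither of the 2 genes starting within 100 kb, Adrbk2 and 2900026A02Rik, had a peak at a start. For Crybb1 on the same chromosome, 4 of 5 such genes had a peak at a start, against 49.8% of all genes, Gm6583 being the exception. Those 4 are all in the high class of CpG content (0.628 to 0.766), where 89.2% of genes have one. Gm6583 (0.25) and 2900026A02Rik (0.268) are in the low class and Adrbk2 (0.418) in the intermediate one. The 2 loci thus cannot be compared apart from CpG class.

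Crygs (ENSMUSG00000033501.4, chr16:22805276-22811483, minus strand) encodes γS-crystallin, a γ-crystallin whose gene lies outside the γ-crystallin cluster. The nearest peak, chr16:22857151-22858525, lay 45.7 kb from its start, was 1375 bp long and had a pileup of 18.54 and a fold enrichment of 5.704. It covered the starts of Tbccd1 and of Dnajb11, a chaperone gene of the endoplasmic reticulum. The Tbccd1 body ends 1805 bp from Crygs, so the acetylated start belonged to the adjacent gene. The stretch without a peak around Crygs was 308 kb long.

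**Figure D4:**
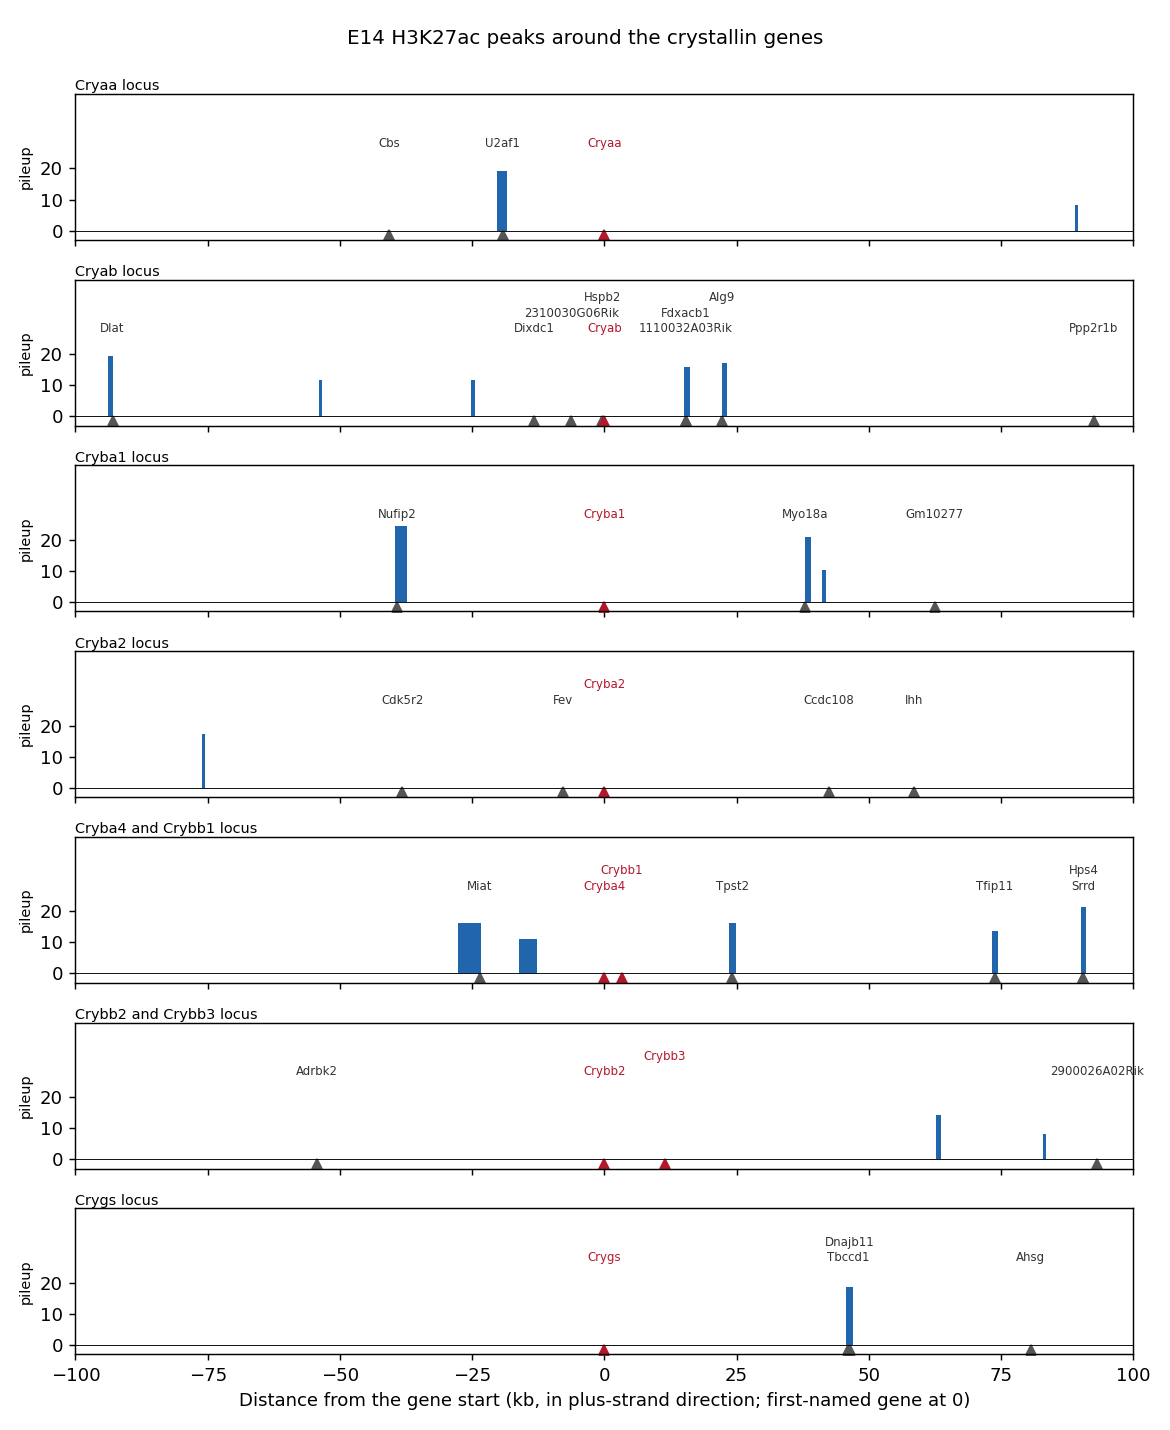
H3K27ac peaks (blue bars, height is the pileup, width is the length with a drawn minimum of 0.6 kb) within 100 kb of the start of each crystallin gene (x axis, kb; first-named gene at 0); triangles mark the starts of crystallin genes (red) and of other genes (grey). No bar reaches a red triangle, and most bars stand over a grey one.

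The 6 peaks in the crystallin windows had a median fold enrichment of 5.24, and 5 of 6 were above the 4.459 median of all peaks. Their pileups ran from 11.23 to 19.08 and their fold enrichments from 4.376 to 6.644, within the range of all peaks (6.0 to 40.22 and 2.058 to 11.135). All 6 also passed a stricter threshold (fold enrichment of at least 4 and q of at most 0.001), as did 8628 of 13463 peaks. Of the 6, 4 had their midpoint within 1000 bp of the start of another protein-coding gene, and with Miat counted none had a crystallin start as its nearest. Over all 9 loci, 15 of 29 distinct neighbours starting within 100 kb had a peak at a start, or 51.7%, close to the 49.8% of all genes.

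Of the 7 other lens crystallins (Cryga to Crygf and Crygn), 1 had a peak at a start, against 49.8% of all genes. By CpG content 4 of these 7 are in the low class (8.29%) and 3 in the intermediate class (62.2%). The gene with a peak was Crygn (chr5:24256821-24263826, minus strand). Its peak, chr5:24256264-24257207, was 944 bp long with a pileup of 12.88 and a fold enrichment of 5.426. It lay at an internal transcript start and spanned the 3′ end of the gene, not the 5′ end. The cluster from Cryga to Cryge lay in a single stretch of 202 kb without a peak, and Crygf was 395 kb from the nearest one. Among 7 genes that carry a crystallin name or fold but are not structural proteins of the lens, Cryz and Cryzl1 had a peak at a start, in each case one shared with a neighbour, Tyw3 and Itsn1. Both peaks fell short of the stricter threshold, with fold enrichments of 3.612 and 3.859. Of those 7 genes, 2 are in the low, 2 in the intermediate and 3 in the high class of CpG content.

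Lens genes other than crystallins were examined because retinas are dissected beside the lens. Of 11 lens fibre markers, 1 had a peak at a start, against 49.8% of all genes. This was the intermediate filament gene Bfsp1 (837 bp, pileup 13.46, fold enrichment 5.242). No peak was found at the starts of the other 10, which included Mip (the lens aquaporin), Lim2, Bfsp2, the connexin gene Gja3, Dnase2b and Hsf4. The start of Bfsp1 is rich in CpG, at 0.802, but those of Gja3 and Hsf4 are also in the high class (0.762 and 0.632) and had no peak. The other 8 fibre markers were all in the low class, where 8.29% of all genes have a peak. A peak lay within 20 kb of the body of 8 of 11 fibre markers, against 63.5% of all genes, and the nearest distance had a median of 19.3 kb. Of 4 lens epithelium markers, Gja1 alone had a peak at a start (1962 bp, pileup 10.19, fold enrichment 3.924), and the starts of Foxe3, Cdh1 and Pdpn lay 60.3 kb or more from a peak. The Gja1 peak fell short of the stricter threshold (fold enrichment of at least 4 and q of at most 0.001). Of these 4 genes, 2 are in the intermediate and 2 in the high class of CpG content, where 62.2% and 89.2% of all genes have a peak. With only 4 genes, a difference from those shares was not tested.

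Transcription factors known from lens or retina were examined as well. Of 8 such genes, 7 had a peak at a start, against 49.8% of all genes, among them Pax6, Six3, Prox1, Maf and Sox2, including the longest peak of the list, 32865 bp at Pax6. Pitx3 had none, and the nearest was 4.13 kb away. Sox1 was not in the annotation used. By CpG content, 7 of these 8 genes are in the high class, where 89.2% of all genes have a peak, and 1 is in the intermediate class, so the count is near the background of its class, as is the 0 of the crystallin genes.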

How the data were processed

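H3K27ac ChIP-Seq of E14 mouse retina was analysed from the peak list alone. Bowtie2 alignments to mm9, restricted by the authors to reads with a unique match, were pooled from 2 replicates. Per the file headers, peaks were then called against 1 isotype control in broad mode (cutoff 0.1) by MACS 2.1.0.20140616, with duplicate tags reduced to 1. As deposited, pileup is a mean signal scaled to the smaller library, fold enrichment is a ratio to local background, and the −log10 p and −log10 q values are averages over each region. The other samples were not used here.

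Peaks were intersected (at least 1 bp) with GENCODE vM1 transcript starts extended by 1000 bp on either side and with gene bodies extended by 20 kb, using Python 3.11.15, numpy 2.4.6 and pandas 2.3.3. The likely gene of a peak was the protein-coding gene with the start nearest to its midpoint. All peaks lay within the mm9 chromosomes. The intersections were tested on simulated data. CpG content and motifs were counted on the mm9 genome and on RefSeq promoters matched to it by sequence. The crystallin genes and the marker lists were chosen with earlier results of these data known. All 9 crystallin genes are described, and neighbouring genes were named where they start within 100 kb or lie nearest to a peak. Alternatives varied the peak threshold, the windows, the minimum overlap, the transcript starts and the gene set. Single values of a few genes in the marker lists are not reported here.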

Additional observations from a re-analysis of the deposited data

How the results depend on the processing

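The count of crystallin genes with a peak at a start was 0 under all 7 alternatives, which were 2 stricter peak thresholds, 3 other windows, an overlap of at least 200 bp and the 5′ end of the gene only. The count of lens fibre markers was 1 under each of these, that of retinal progenitor markers was 9 or 10, and the share of all genes ran from 37.8% to 51.4%. The flank decided how many crystallin genes had a peak nearby. With no flank, 0 crystallin genes and 0 peaks were found, with a flank of 10 kb 2 genes and 2 peaks, and with 50 kb 6 genes and 11 peaks, while 50.6%, 58.3% and 72.1% of all genes had a peak. With peaks of fold enrichment of at least 4 and q of at most 0.001, the nearest peak moved from 75.3 to 179 kb for Cryba2, from 62.8 to 420 kb for Crybb2 and from 51.3 to 409 kb for Crybb3, and did not move for the other 6 genes. Measuring to the peak midpoint gave 13 kb for Cryba4 and 75.5 kb for Cryba2 and kept the order of the 9 genes. No paired analysis was possible because the replicates were pooled into 1 list and no test was run. The shallow control limits the detection of weak regions.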

Other observations

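Markers of other tissues that adjoin the retina were read against the 49.8% of all genes with a peak at a start and the 8.29% of genes with low CpG content. Of 6 retinal pigment epithelium genes (Rpe65, Tyr, Tyrp1, Mitf, Best1 and Rlbp1), 0 had a peak at a start. Of 6 surface ectoderm and cornea genes (Krt5, Krt12, Krt14, Krt15, Trp63 and Krt8), 0 had one. Of 4 blood vessel genes, Kdr, which encodes a receptor for vascular endothelial growth factor, had a peak of 1652 bp with a pileup of 11.4 and a fold enrichment of 3.974, and Pecam1, Cdh5 and Tek had none. The Kdr peak fell short of the stricter threshold (fold enrichment of at least 4 and q of at most 0.001). In each of the first 2 lists 5 of 6 genes, and in the vessel list 3 of 4, have low CpG content, so the first 2 counts are near the background of that class.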
